A study of Mus musculus with 24 samples.

Results

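Vessels of the brain are built from endothelial cells sealed by tight junctions, mural cells (pericytes and smooth muscle) that wrap them, and a basement membrane between both, and fibroblasts lie around larger vessels and in the meninges that cover the brain. Genes that mark these cells were followed in 2 sensory nuclei of the neonatal mouse thalamus: 39 genes were chosen by annotated symbol as markers of these cells, with earlier results of these data known, and 38 of them were measured among 18194 genes. Ly6c1, an endothelial surface gene, had only a probe set shared with Ly6c2 and was left out. By role, the 38 were 12 fibroblast and meningeal matrix genes, 3 vascular basement membrane genes, 12 endothelial genes, 3 transporters of the blood-brain barrier and 8 mural genes. Where several probe sets named a gene (22 of the 38), the brightest by its mean over all 24 arrays stood for it.

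The study asked how loss of the eyes before birth changes the sensory thalamus. Wild-type C57BL/6 mice had both eyes cauterized in utero (embBE) or were littermate controls, and the ventrobasal complex (VB, which holds the VPM) and the dorsal lateral geniculate nucleus (dLGN) were microdissected at P0 and P4. The 8 groups had 3 arrays each, apart from dLGN at P0 with 4 embBE arrays and 2 controls. Each array held nuclei pooled from pups of 1 litter and condition, so n counts pools and p-values measure the spread between pools. In such bulk tissue fewer cells of a type and less RNA per cell cannot be told apart, and what microdissection left of meninges and large vessels was not recorded.

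The array signals are deposited log2 values, and a difference of 1 is a 2-fold change. The bright members were Rgs5 (9.64 as the mean over 24 arrays), a pericyte gene, Col4a1 (9.51), a basement membrane collagen chain, Cldn5 (9.49), the main tight junction claudin of brain endothelium, Itm2a (9.40) and Slc2a1 (9.37), the glucose transporter of the barrier. Pecam1, an endothelial adhesion protein, had a mean signal of 4.21, and the matrix proteoglycan gene Lum had 4.05. The means of 11 of the 38 members were under the 25th percentile of genes, and 16 lay above the median gene.

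Some arrays stood apart before any comparison. The P0 control arrays 39_5 of both nuclei stood out in GABAergic markers: over 8 of them the mean deviation from each gene's mean over the 24 arrays was 1.42 in VB and 1.25 in dLGN, against at most 0.38 on any other array. In dLGN P4 embBE array 36_2 the 12 matrix members lay 0.89 above their means over the 24 arrays, and 4 border macrophage markers lay 0.65 above theirs. The SD over all probe sets, a measure of how wide the signals spread, was 2.16 to 2.42. It was under 2.27 on 6 arrays: control 35_1 at P0 and control 36_3 at P4 in VB, and embBE 39_3 and 35_3 at P0, embBE 36_2 at P4 and control 40_1 at P4 in dLGN. Red blood cell haemoglobin Hba-a1 was 6.07 to 6.93 on all arrays and choroid plexus marker Ttr was 6.69 to 7.32.

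The sequences below are shown because Col4a2 gave the firmest difference between the nuclei while Col4a1, which shares its promoter region, was not called, and because Col1a2 and Col3a1 were high on the same arrays in dLGN at P4. Col4a1 and Col4a2 encode the chains of the vessel's collagen IV and are transcribed in opposite directions from start sites 21 bases apart on mouse chromosome 8, so that the windows of 250 bases before to 50 after each start share 78 bases (chromosome 8, 11312777 to 11312854, GRCm38.p6, RefSeq). The start of Col4a1 is at 11312826 and that of Col4a2 at 11312805, so each gene is read across the start of the other. Every shared base thus lies within the 50 bases after at least 1 of the starts. Capitals mark the shared bases, which have a GC content of 73.1%.
Col4a1, chr8:11312777-11313076, minus strand: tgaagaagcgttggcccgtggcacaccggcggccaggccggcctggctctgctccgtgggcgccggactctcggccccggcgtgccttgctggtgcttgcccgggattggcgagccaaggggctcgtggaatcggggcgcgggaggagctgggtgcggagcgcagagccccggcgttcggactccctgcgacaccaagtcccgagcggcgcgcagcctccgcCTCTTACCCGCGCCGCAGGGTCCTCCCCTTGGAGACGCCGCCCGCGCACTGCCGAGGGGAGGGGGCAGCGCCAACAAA
Col4a2, chr8:11312555-11312854, plus strand: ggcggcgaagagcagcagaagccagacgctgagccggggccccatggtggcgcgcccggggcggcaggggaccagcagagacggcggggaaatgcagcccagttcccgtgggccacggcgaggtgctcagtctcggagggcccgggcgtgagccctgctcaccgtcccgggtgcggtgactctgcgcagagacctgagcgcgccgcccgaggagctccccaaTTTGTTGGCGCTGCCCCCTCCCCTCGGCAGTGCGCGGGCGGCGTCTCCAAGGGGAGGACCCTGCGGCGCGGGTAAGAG
Col1a2, chr6:4505368-4505667, plus strand: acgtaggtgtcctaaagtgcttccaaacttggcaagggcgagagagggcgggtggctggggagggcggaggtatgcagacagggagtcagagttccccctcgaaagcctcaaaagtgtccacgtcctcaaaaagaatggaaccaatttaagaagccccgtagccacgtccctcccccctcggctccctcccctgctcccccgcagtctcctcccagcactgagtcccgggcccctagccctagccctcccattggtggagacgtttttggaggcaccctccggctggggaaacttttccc
Col3a1, chr1:45311288-45311587, plus strand: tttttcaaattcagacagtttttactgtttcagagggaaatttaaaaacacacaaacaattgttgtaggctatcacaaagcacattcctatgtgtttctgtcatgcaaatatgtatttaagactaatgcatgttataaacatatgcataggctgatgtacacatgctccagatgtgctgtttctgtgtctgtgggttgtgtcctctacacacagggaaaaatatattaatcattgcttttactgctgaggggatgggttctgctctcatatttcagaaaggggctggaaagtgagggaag
The promoter table held 30 windows of 27 members. The strict CArG box (CC, then 6 bases of A or T, then GG) is a site of the smooth muscle factor SRF. It was in none of the 30, on either strand, against 1.629% of 32851 windows in all. The Acta2 window held near matches (ccctatatgg and ccttgtttgg) that the strict form does not count. The result thus does not show that SRF sites are absent. The ETS-like letters CNGGAAG, which carry the core of endothelial ETS factors, were in 7 of the 30 (of Col6a1, Emcn, Flt1, Itm2a, Postn, Slc6a13 and Tie1) against 31.889% of all windows. Neither was in the 4 windows printed above.

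The comparison of embBE with control in VB asks whether the nucleus that keeps its input changed. None of the 38 members was called at the study's threshold in VB (a fold of at least 1.5 and a limma p under 0.05, which was taken as unadjusted) at P0 or at P4, where 0.726% and 0.159% of all genes were called. By the unadjusted p alone 3 members passed at P0 (background 6.7%) and none at P4 (3.98%). At P0 Fn1, the fibronectin gene, was 7.32, 7.74 and 7.81 on embBE arrays and 7.23, 7.26 and 6.83 on controls, so the groups did not overlap. Its difference was 0.52 (SE 0.17), an adjusted p of 0.68 in limma. Col6a1, a microfibrillar collagen chain, lay lower on every embBE array of P0, by -0.33 (SE 0.13). Fn1 was called without embBE array 35_3, where 0.775% of all genes were, and with the pericyte channel subunit gene Abcc9 it was called without control 35_2, where 5.82% of all genes were. At P4 Col1a1 was called without control 40_1 (0.654% of all genes). The 2 of 38 members whose groups did not overlap at P0 compare with 12% of all genes, and at P4 none of the 38 was without overlap (12.2%). The other named markers of VB at P0 and P4 differed by -0.27 (SE 0.31) and -0.51 (SE 0.31) for Col1a1, the main fibrillar collagen chain, -0.02 (SE 0.16) and 0.00 (SE 0.16) for Dcn, 0.23 (SE 0.18) and 0.15 (SE 0.18) for Col4a1, 0.07 (SE 0.27) and 0.16 (SE 0.27) for Cldn5 and -0.06 (SE 0.11) and -0.10 (SE 0.11) for Pecam1. For Slc2a1 they were -0.30 (SE 0.20) and -0.05 (SE 0.20), for Pdgfrb, the pericyte receptor for PDGF-B, -0.25 (SE 0.27) and 0.15 (SE 0.27), and for Acta2, smooth muscle actin, 0.05 (SE 0.15) and 0.19 (SE 0.15).

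**Figure D1:**
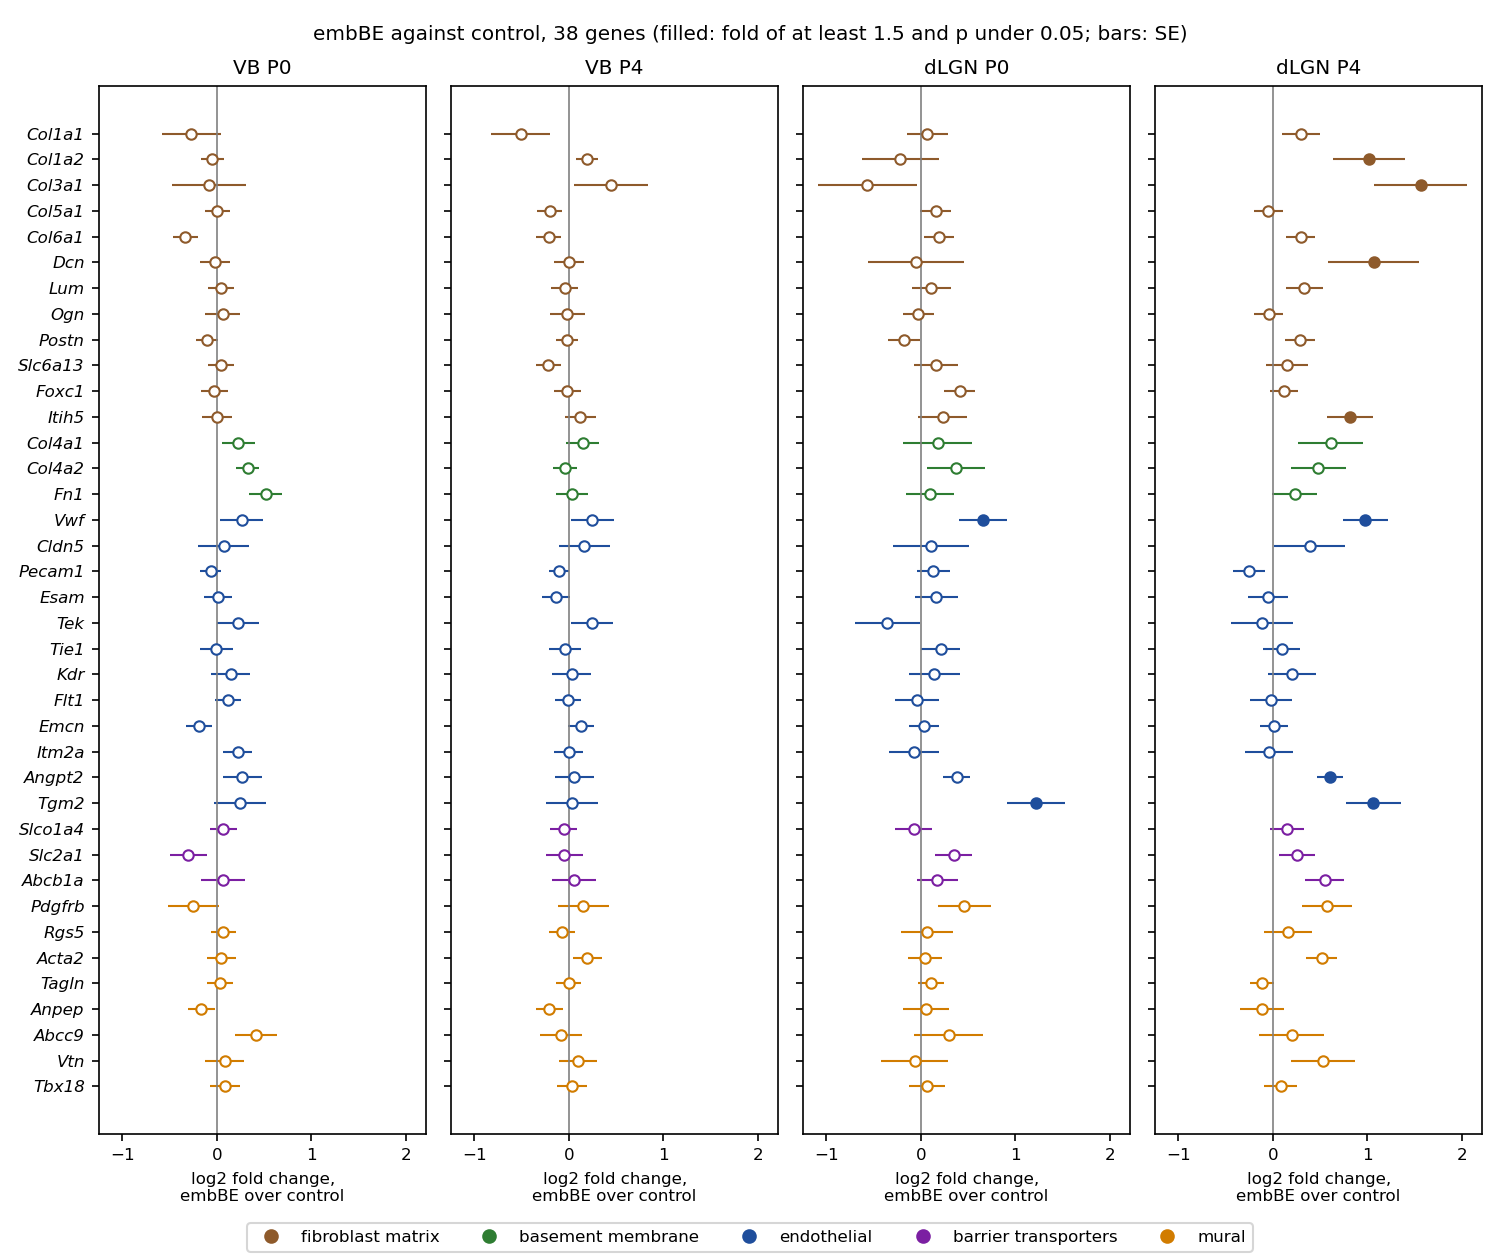
Log2 fold change of embBE over control for each of the 38 genes in the 4 nucleus and age comparisons; points are limma estimates, bars 1 SE, colours the role, filled points were called at the study's threshold. No filled point lies in VB, 2 lie in dLGN at P0 (Tgm2 1.22, Vwf 0.66) and 7 in dLGN at P4, all to the right of 0.

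In dLGN, the nucleus that lost its retinal input, the few members that were called were all higher in embBE, and the others lay on either side of 0 without a call. The study reported a smaller dLGN after embBE, measured at a later age than these arrays, and its part in these values was not tested. At P0 2 of 38 were called, both higher, against 0.0879% of all genes called higher (0.445% either way): Tgm2, a transglutaminase that cross-links matrix proteins, and Vwf, the endothelial clotting factor. At P4 7 of 38 (18.4%) were called, all higher, against 0.066% of all genes higher and 0.198% either way: the matrix genes Col3a1, Dcn, Col1a2 and Itih5, and the endothelial genes Tgm2, Vwf and Angpt2. Neither the basement membrane, transporter nor mural members were called at either age. Since the members were chosen with earlier results of these data known, the shares describe the list and are not a test of it. No member or other gene passed an adjusted p of 0.05 in limma at P0 or P4 (lowest member value 0.85 and 1); by the unadjusted p 4 of 38 members passed at P0 (background 2.38%) and 10 at P4 (1.3%). The median difference over the 38 was 0.11 at P0 and 0.24 at P4, against 0.03 and 0.01 over all genes. With the mean of a gene's probe sets in place of the brightest, Tgm2 (0.55), Angpt2 (0.38) and Dcn (0.47) were not called at P4.

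The fibroblast genes at P4 rested mainly on 1 array. Col3a1, a fibrillar collagen chain of loose connective tissue, was 6.58, 7.66 and 5.37 on embBE arrays 24_4, 36_2 and 40_3 and 5.35, 4.62 and 4.95 on controls 24_2, 36_3 and 40_1. All 3 embBE values were above all controls, the lowest by under 0.1, and the difference was 1.56 (SE 0.49), a fold of 2.96. Col1a2, a type I collagen chain, was 7.85, 9.20 and 7.28 on the embBE arrays and 7.11, 6.88 and 7.30 on controls, so the lowest embBE array lay within the controls. Its difference was 1.02 (SE 0.38). Dcn, the small proteoglycan decorin that binds collagen fibrils, was 6.16, 8.19 and 5.54 against 5.47, 5.47 and 5.73, with a difference of 1.07 (SE 0.48). Itih5, a hyaluronan-binding inter-alpha-trypsin inhibitor chain, was 7.44, 8.32 and 7.42 against 7.17, 6.60 and 6.94, with no overlap and a difference of 0.82 (SE 0.24). In each of these the array 36_2 was the highest of 24.

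Without array 36_2 the differences were 0.47 for Col1a2, 0.29 for Dcn and 0.52 for Itih5, none of them called, and 1.001 for Col3a1, which was still called. With all arrays, the other, dimmer probe set of Col3a1 kept the sign but was not called. Under the methods' t-test none of the 4 matrix genes was called. Col1a1 was 7.33 on that array and 6.63 and 6.52 on the other embBE arrays, against 6.40 to 6.60 on controls, with a difference of 0.30 (SE 0.20) that was not called. The remaining matrix members at P4 were not called and lay between -0.05 (SE 0.15, Col5a1) and 0.33 (SE 0.20, Lum). On array 36_2 8 of the 12 matrix members were the highest of the 6 dLGN arrays of P4 and 5 the highest of all 24. The 4 markers of border macrophages, the cells that sit beside vessels and meninges, were all highest there (Pf4, Lyve1, Cd163 and Mrc1). Pf4 was 7.11, Cd163 5.001 and Mrc1 4.29. Mrc1 was almost level on dLGN P4 embBE array 24_4 and dLGN P0 embBE array 39_4 (4.28 on each). Mrc1 and Cd163 were dim, at percentiles 6.5 and 7.1 of genes by mean signal. Pf4, the platelet factor 4 gene that border macrophages carry, was the 1 of the 4 called at P4 (0.59, SE 0.19). It was 6.67, 7.11 and 6.32 on embBE arrays against 6.01, 5.90 and 6.40 on controls, so the groups overlapped. The 8 microglia markers lay 0.50 above their means on array 36_2, more than on any other of the 24 arrays, and 6 of the 8 were the highest of the 6 dLGN arrays of P4. The part of those cells and of meningeal tissue in the matrix values was not tested.

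High matrix values were also met elsewhere. Col3a1 was 6.46 on VB P4 embBE array 24_4 and 4.48 and 4.65 on the other 2 VB embBE arrays of P4; on dLGN P0 control 35_1 it was 6.19, against 4.77 on the other control and 4.68 to 5.35 on embBE arrays. Col1a1 was 8.06 on VB P4 control 36_3, the highest of the 24 arrays, where Dcn was 5.71. VB P0 control 35_1 was the highest of the 6 VB arrays of P0 in 9 of 12 matrix members. It was the highest of all 24 in 1 of the 12. This control was also the highest of those 6 in all 4 border macrophage markers and in 17 of 25 further fibroblast genes. At P0 in dLGN the differences were -0.56 (SE 0.52) for Col3a1, -0.22 (SE 0.41) for Col1a2, -0.05 (SE 0.51) for Dcn and 0.07 (SE 0.21) for Col1a1. The spread within groups was thus wide: of 18194 genes, the within-group SD of Col3a1 (0.66) lay at percentile 99.4 and that of Dcn (0.52) at percentile 97.2, and 11 of 38 members were above the 90th percentile.

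**Figure D2:**
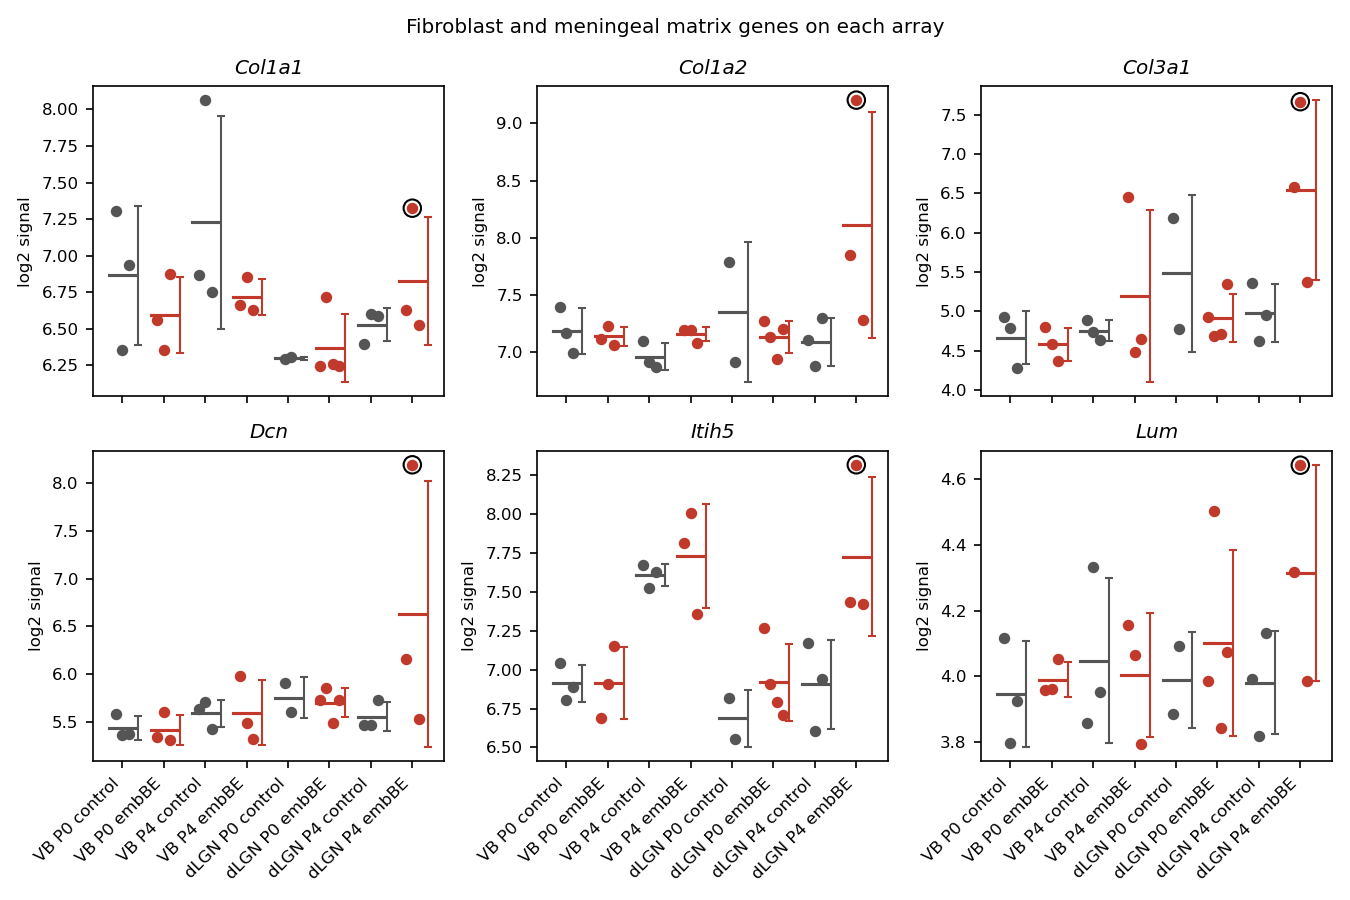
Log2 signal of 6 matrix genes on each of the 24 arrays, by group; bars are group means with SD, and the ring marks dLGN P4 embBE array 36_2. The ringed array is highest in Col1a2 (9.20), Col3a1 (7.66), Dcn (8.19), Itih5 (8.32) and Lum (4.64), whereas Col1a1 is highest on a VB P4 control (8.06).

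The 3 endothelial genes called at P4 were still called without that array. Vwf was 6.52, 7.002 and 7.06 on the embBE arrays and 6.21, 5.57 and 5.88 on controls. The groups did not overlap, the difference was 0.98 (SE 0.24), a fold of 1.97, and it was called under each of the 6 arrays left out and each alternative. Tgm2 was 7.84, 8.70 and 7.92 against 7.07, 6.83 and 7.38, again with no overlap, with a difference of 1.06 (SE 0.29), also called under each array left out but not with the mean of its probe sets. Angpt2, the angiopoietin that opposes TIE2 signalling during vessel remodelling, was 7.82, 7.72 and 7.78 against 7.45, 7.07 and 6.98, with a difference of 0.60 (SE 0.13) that was near the fold threshold and was not called without embBE array 24_4 (0.58) or without control 36_3 (0.56) or 40_1 (0.51), nor with the mean of its probe sets. Its second probe set (0.15, SE 0.15) was not called. Of Tgm2's 6 probe sets, the 3 brightest were called (1.06, 1.04 and 1.19), and all 3 bear the suffix for probes that may match other transcripts. The 3 dimmer ones (0.07, 0.08 and -0.12) were not called, at P0 either. Vwf had 1 probe set. The other 9 measured endothelial members, among them the claudin Cldn5 (0.39, SE 0.38), Pecam1 (-0.25, SE 0.17), the VEGF receptors Kdr (0.20, SE 0.25) and Flt1 (-0.02, SE 0.22) and the angiopoietin receptor Tek (-0.11, SE 0.33), were not called.

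At P0 Tgm2 was 8.77, 8.89, 8.34 and 8.03 on embBE arrays and 7.68 and 6.90 on the 2 controls, all embBE values above both controls, with a difference of 1.22 (SE 0.31), a fold of 2.32. Vwf was 7.21, 6.84, 6.92 and 6.33 against 6.36 and 5.97, an overlap of 1 embBE array with the higher control, with a difference of 0.66 (SE 0.25). Control array 39_5 had high GABAergic markers. It was also the lowest of the 6 dLGN arrays of P0 in 9 of 12 endothelial, 6 of 8 mural and all 3 basement membrane members. Control 35_1 was the highest of the 6 in 5 of the 12 endothelial members. Leaving out 39_5 left 1 control, so only the differences are given: 0.83 for Tgm2 and 0.46 for Vwf, the latter under the fold threshold. Vwf was not called without embBE array 39_2 (0.53). Angpt2 (7.92, 8.07, 7.83 and 7.98 against 7.55 and 7.59) did not overlap between groups but its difference of 0.38 (SE 0.14) was under the fold threshold, and so was that of Foxc1 (0.41, SE 0.16), a transcription factor of meningeal and mural cells. These 3 of 38 compare with 5.9% of genes in which all embBE arrays were above both controls. At P0 Cldn5 differed by 0.11 (SE 0.40), Pecam1 by 0.13 (SE 0.18), Col4a1 by 0.18 (SE 0.36) and Slc2a1 by 0.35 (SE 0.20).

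**Figure D3:**
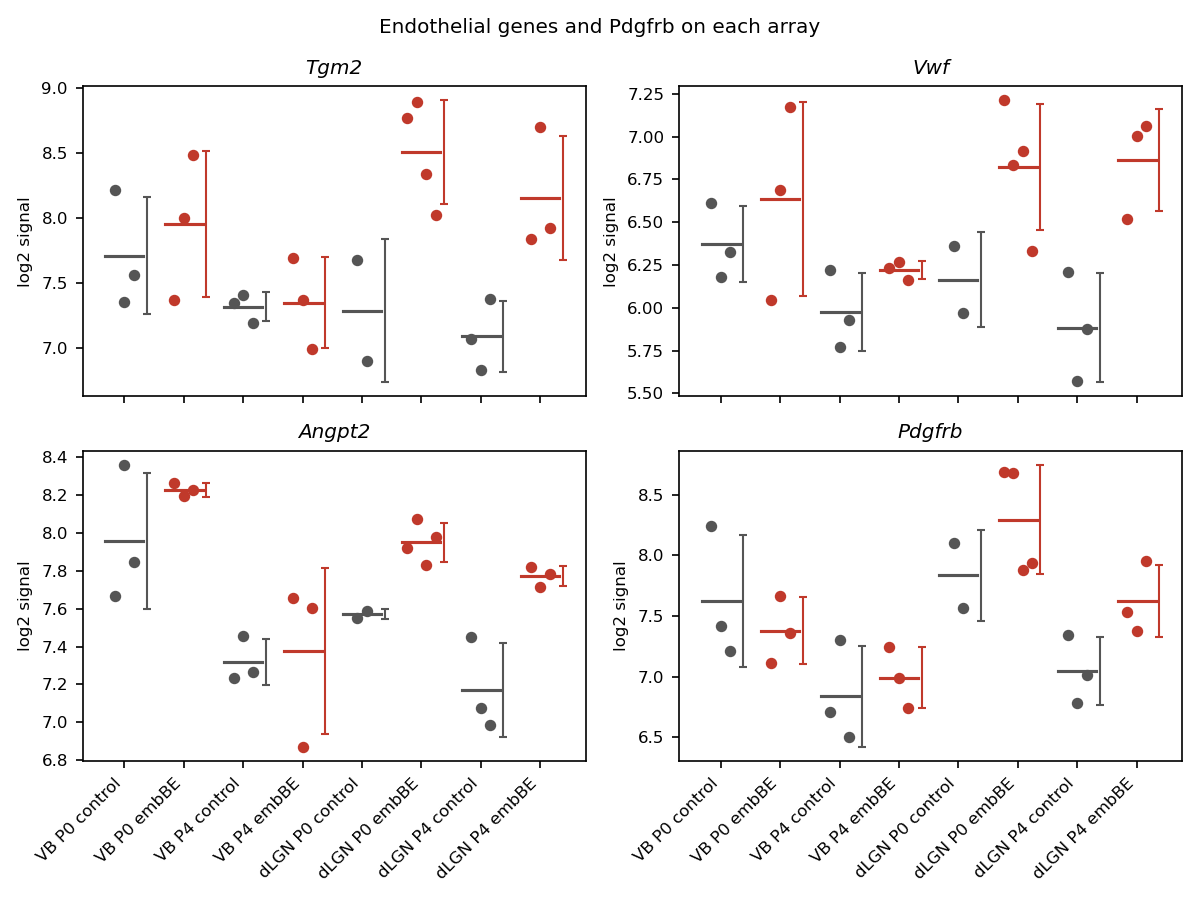
Log2 signal of Tgm2, Vwf, Angpt2 and Pdgfrb on each of the 24 arrays by group; bars are group means with SD. In dLGN at P4 all 3 embBE arrays lie above all 3 controls in each of the 4 genes, with a difference of 0.58 for Pdgfrb that was not called; in VB the groups overlap.

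The mural, transporter and basement membrane members of dLGN at P4 were higher in part without a call. Pdgfrb was 7.53, 7.38 and 7.95 on embBE arrays and 7.34, 6.79 and 7.01 on controls, just without overlap, a difference of 0.58 (SE 0.26), while its second probe set gave 0.02. Acta2 was 7.84, 7.43 and 7.38 against 6.85, 6.997 and 7.25, with no overlap and a difference of 0.52 (SE 0.17), below the fold of 1.5. Together with Col3a1, Itih5, Vwf, Angpt2 and Tgm2, 7 of 38 members had all embBE arrays above all controls, against 2.47% of all genes. Abcb1a, the drug efflux pump, differed by 0.55 (SE 0.21), Slc2a1 by 0.25 (SE 0.19), Col4a1 by 0.61 (SE 0.34) and Rgs5 by 0.16 (SE 0.26). The exact permutation tests of Col1a1, Cldn5 and Pdgfrb in the 4 comparisons (12 tests) gave a lowest p of 0.1 (Pdgfrb in dLGN at P4), which is the smallest possible with 3 against 3 arrays and 0.93 adjusted; with 4 against 2 it is 0.0667.

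In dLGN at P4 none of 25 further fibroblast genes, 11 basement membrane genes, 13 mural genes and 20 vessel signals was called, and of 26 further endothelial genes Sox17, an arterial transcription factor, was called higher (0.66, SE 0.27). At P0 Crabp2, a retinoic acid binding protein that is on the fibroblast list but that the study used as a marker of the auditory thalamus, was called higher (1.85, SE 0.71), and Islr (-0.93, SE 0.22) and the VEGF co-receptor Nrp1 (-0.62, SE 0.28) were called lower.

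Control arrays also varied in ways shared by many members. The dLGN P4 controls 36_3 and 40_1 lay 0.34 and 0.39 below the mean of the 12 endothelial genes, and control 24_2 lay 0.11 above it, the embBE arrays spanning -0.09 to 0.09. Control 24_2 also stood apart in RNA quality: its gap between the 3′ and 5′ actin probe sets was 2.21, against 3.33 to 4.13 on the other 5 dLGN arrays of P4. Its 6 neuronal markers lay 0.42 above their means, against -0.14 and -0.54 on controls 36_3 and 40_1, and the part of either measure was not tested. Without control 24_2, 12 members were called at P4, all higher, against 0.379% of all genes, with Col4a1, Col4a2, Cldn5, Abcb1a, Pdgfrb and Vtn added and Dcn lost. Without control 36_3, 4 were called (0.159% of all genes). With embBE array 36_2 left out 6 were called (0.308%), of which 4 (Col3a1, Vwf, Angpt2 and Tgm2) were among the 7.

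**Figure D4:**
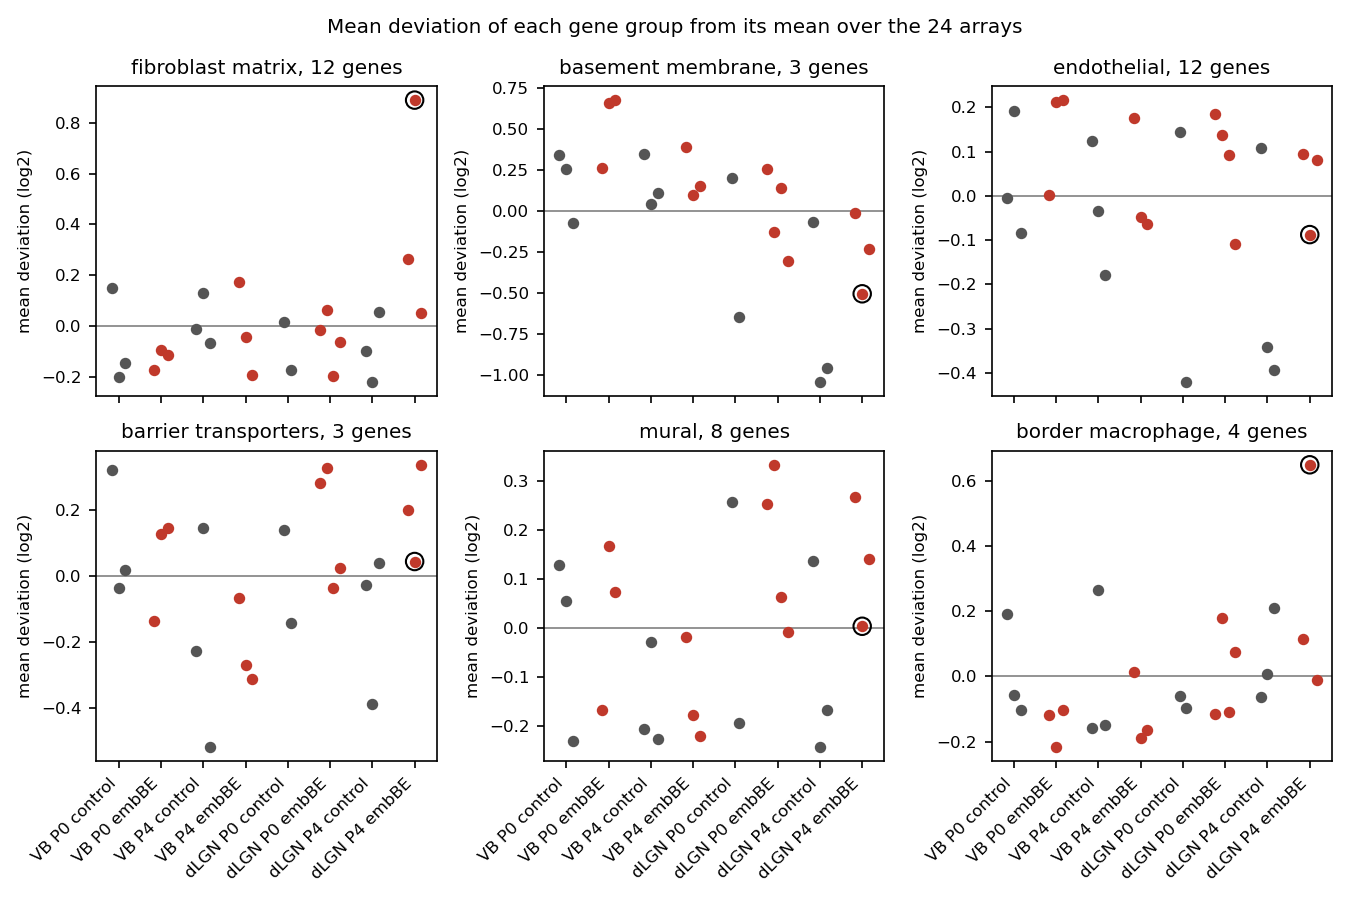
Mean deviation in log2 of each gene group from its own mean over the 24 arrays, for the 5 groups of members and 4 border macrophage markers; each point is 1 array, red for embBE, and the ring marks dLGN P4 embBE array 36_2. The ringed array is at 0.89 for matrix genes and 0.65 for macrophage markers, and at -0.50 for basement membrane genes, whose lowest array is a dLGN P4 control at -1.04.

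Whether the effect differed between nuclei or ages was tested directly. The embBE effect in VB minus that in dLGN was called at P0 for Tgm2 (-0.97, SE 0.44) and Slc2a1 (-0.65, SE 0.29), 2 of 38 against 2.73% of all genes, and at P4 for Tgm2 (-1.03, SE 0.43), Vwf (-0.73, SE 0.35) and Itih5 (-0.70, SE 0.31), 3 of 38 against 0.506%. The effect in dLGN at P4 minus at P0 was called for Col3a1 (2.13, SE 0.72) and Col1a2 (1.23, SE 0.56), 2 of 38 against 0.418%, and no member was called for that difference in VB (0.346%). No adjusted p was under 0.05 in these 4 contrasts (the lowest for a called member was 0.53). None of the 3 differences between the nuclei at P4 was called without dLGN P4 embBE array 36_2, control 36_3 or VB embBE array 40_3. Over the 12 arrays left out in turn, Vwf lost that call under 9, Itih5 under 5 and Tgm2 under 3. At P0 Tgm2 lost its call under 6 of 12 arrays (-0.58 at the smallest) and Slc2a1 under 5 (-0.39), and neither was called with the SD of each array as a covariate. Slc2a1 was not called with the mean of its probe sets either (-0.35). The other probe set of Col3a1 was not called for the difference between ages in dLGN. Between the ages Col1a2 lost its call under 8 of 12 arrays (0.69 at the smallest) and with the dimmest genes left out, and Col3a1 under 1, dLGN P0 control 35_1 (1.42).

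Between P0 and P4, with control and embBE averaged, 3 of 38 members were called in VB, against 4.51% of all genes. Itih5 was 6.69 to 7.15 on the 6 arrays of P0 and 7.36 to 8.01 on those of P4, with no overlap, and rose by 0.75 (SE 0.11, adjusted p 0.0012 in limma). Angpt2 was 7.67 to 8.36 at P0 and 6.87 to 7.66 at P4, without overlap, and fell by 0.75 (SE 0.15, adjusted p 0.0059). Pdgfrb differed by -0.59 (SE 0.19, adjusted p 0.059) and its second probe set by -0.20; the call was lost under 5 of 12 arrays, with the mean of the probe sets (-0.39), with cyclic loess (-0.58) and with the SD of each array as a covariate (-0.37). With the mean of the probe sets Angpt2 (-0.47) was not called either. Smaller changes with an adjusted p under 0.05 in limma were falls of Slc2a1 by 0.55 (SE 0.14) and of Col4a2 by 0.33 (SE 0.09), so that 4 of 38 passed that limit against 13.4% of all genes. The ages did not overlap for 2 of 38, Itih5 and Angpt2, against 6.69%. Col1a1 differed by 0.24 (SE 0.22), Dcn by 0.16 (SE 0.11), Cldn5 by -0.18 (SE 0.19), Pecam1 by -0.02 (SE 0.08), Col4a1 by -0.26 (SE 0.12) and Acta2 by -0.08 (SE 0.11). The called share of members was 7.89% and the share past the adjusted limit 10.5%.

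In dLGN 2 of 38 were called between the ages (3.24% of all genes). Pdgfrb fell by 0.73 (SE 0.19) and Col4a2 by 0.65 (SE 0.21), and only Slco1a4, an organic anion transporter of brain endothelium, had an adjusted p under 0.05 (0.54 higher, SE 0.13, 1 of 38 against 4.72%). For none of the 38 were the ages without overlap (5.21%). Col4a2 was not called without any 1 of 4 arrays, control 35_1 of P0 (-0.47) among them. The second probe set of Pdgfrb gave -0.07, and with the mean of the probe sets Pdgfrb was not called. The differences of Acta2 (0.39, SE 0.12), Col1a1 (0.34, SE 0.15), Dcn (0.36, SE 0.35) and Slc2a1 (-0.35, SE 0.14) were not called, nor were those of Cldn5 (-0.04, SE 0.27), Pecam1 (-0.06, SE 0.12) and Col4a1 (-0.45, SE 0.25).

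Of 20 measured signals that act on vessels, which are not members, 4 were called higher with age in VB and none lower, against 3.65% of all genes called higher. Tspan12, the co-receptor of Norrin in endothelium, rose by 1.58 (SE 0.14), Angpt1, the TIE2 agonist, by 1.10 (SE 0.18), Ndp, which encodes Norrin, by 0.79 (SE 0.13) and Pdgfb, the pericyte recruitment factor, by 0.71 (SE 0.10). In dLGN Tspan12 rose by 0.65 (SE 0.26), the only one called. Of 26 further endothelial and barrier genes, Slc16a1, the monocarboxylate transporter, rose by 1.01 (SE 0.17) in VB and 0.76 (SE 0.30) in dLGN. Of 11 further basement membrane genes, Nid1 (0.75, SE 0.14) and Sparc (0.63, SE 0.15) rose in VB. The median difference with age of 25 further fibroblast genes was -0.09 in VB and 0.05 in dLGN. Crabp2, which is on that list but also marks the auditory thalamus, fell by 1.42 (SE 0.27) in VB and by 1.71 (SE 0.48) in dLGN. Pcolce rose by 0.74 (SE 0.25) in dLGN. None of the 13 further mural genes was called with age in either nucleus.

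Between the nuclei the clearest member was Col4a2. It was 8.85, 9.12 and 9.13 on the VB embBE arrays of P0 and 8.88, 8.75 and 8.50 on the VB controls, against 8.18, 7.75, 8.02 and 7.54 and 7.85 and 7.15 in dLGN. At P4 it was 8.60, 8.44 and 8.51 and 8.69, 8.43 and 8.56 in VB, against 7.57, 7.01 and 7.25 and 7.48, 6.41 and 6.50 in dLGN. Every VB array lay above every dLGN array of the same age, and the difference was 1.19 (SE 0.17, adjusted p 0.0001 in limma) at P0 and 1.503 (SE 0.16, adjusted p 2.4e-06) at P4, folds of 2.28 and 2.83. It was called under each array left out and each alternative. Its partner Col4a1, transcribed from the shared promoter region, differed by 0.20 (SE 0.21) at P0 and 0.39 (SE 0.21) at P4 and was not called. The level of Col4a2 minus that of Col4a1 was -0.72 to -1.11 on the VB arrays and -1.64 to -2.25 on the dLGN arrays, so the ranges did not overlap. Levels of 2 probe sets are not comparable. The change of their gap between the nuclei holds for this pair of probe sets, and the part of RNA quality in it was not tested. Col4a2 had 1 probe set. The second, dimmer probe set of Col4a1 had the opposite sign, -0.21 (SE 0.15) at P0 and -0.25 (SE 0.14) at P4, and was not called either.

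RNA quality differed between the nuclei on average. In VB the gap between the 3′ and 5′ actin probe sets was 1.95 to 2.98 on most arrays. It was wider on P0 control 35_1 (4.29) and P4 control 36_3 (3.14). In dLGN the gap was 3.065 to 4.27, apart from P4 control 24_2 (2.21). Quality and nucleus thus largely went together. The part of RNA quality in the differences between nuclei was not tested.

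**Figure D5:**
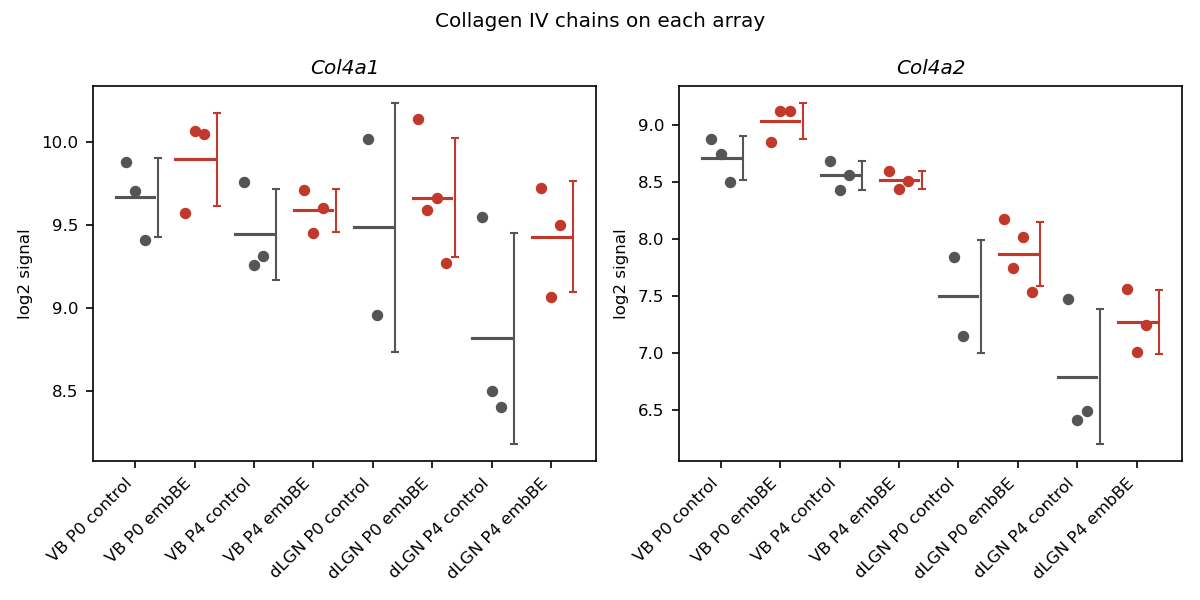
Log2 signal of Col4a1 and Col4a2 on each of the 24 arrays by group; bars are group means with SD. All Col4a2 values of VB (8.43 to 9.13) lie above those of dLGN (6.41 to 8.18), whereas Col4a1 overlaps between the nuclei (8.41 to 10.13 in dLGN).

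The other members did not separate the nuclei more often than other genes. At P0 Col4a2 was the only one called (4.52% of all genes), the only one with an adjusted p under 0.05 (7.86%) and the only one without overlap (4.29%). At P4 there were 2 (8.16%), the other being Col3a1, lower in VB by the estimate of -0.78 (SE 0.34), which was -0.50 without embBE array 36_2 of dLGN and lost its call without any 1 of 6 of the 12 arrays. At P4 an adjusted p under 0.05 was also reached by Slc6a13, a GABA transporter of leptomeninges (0.38, SE 0.13), Flt1 (0.40, SE 0.13), Col5a1 (-0.36, SE 0.10) and Col6a1 (-0.41, SE 0.10), 5 of 38 in all against 20.3%, and the nuclei did not overlap for 2 of 38 against 6.68%. Pdgfrb was lower in VB by estimates of -0.56 (SE 0.21) at P0 and -0.42 (SE 0.20) at P4, not called. The other values at P0 and P4 were 0.40 (SE 0.20) and 0.30 (SE 0.20) for Col1a1, -0.30 (SE 0.28) and -0.50 (SE 0.27) for Dcn, 0.37 (SE 0.26) and 0.23 (SE 0.25) for Cldn5 and -0.10 (SE 0.10) and -0.05 (SE 0.10) for Pecam1. For Slc2a1 they were -0.13 (SE 0.15) and -0.33 (SE 0.14), and for Acta2 0.15 (SE 0.12) and -0.32 (SE 0.11).

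Among genes that are not members, the collagen-processing enhancer Pcolce was lower in VB at P4 (-1.23, SE 0.21) and Islr at both ages (-1.27, SE 0.13, and -1.001, SE 0.12). The auditory thalamic marker Crabp2 was higher in VB at both (2.64, SE 0.43, and 2.93, SE 0.42). Of the further endothelial genes, Slc16a1 and the efflux pump Abcg2 were higher in VB at P0 (0.73, SE 0.27, and 0.78, SE 0.27) and at P4 (0.98, SE 0.26, and 0.90, SE 0.26). The transferrin receptor Tfrc and the surface sialomucin Cd34 were called higher at P4 only (0.67, SE 0.19, and 0.66, SE 0.30), and their difference between the ages was not tested. Tspan12 (1.30, SE 0.22), Angpt1 (0.83, SE 0.23) and Ndp (0.59, SE 0.12) were higher in VB at P4, and Nrp1 was lower at P0 (-0.90, SE 0.19).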

How the data were processed

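Affymetrix arrays of VB and dLGN tissue carry deposited log2 values; the authors made them by RMA normalization, whose version is not given in the sources used here. The labels and methods name a 2-round amplification. No genome build is named, and the promoter windows are RefSeq's, of GRCm38.p6. Of 45101 probe sets, 34958 with 1 symbol gave 18194 genes. Probe-level intensities and detection calls were not analysed here, so weak signals could not be told from background, and the number of arrays limits the precision.

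Members and lists were chosen with earlier results of these data known. Groups came from the labels. Contrasts came from limma 3.58.1 under R 4.3.3 (group means, eBayes), over the 12 arrays of a nucleus, or all 24 for contrasts between nuclei. Calls used the study's threshold, a fold of at least 1.5 and p under 0.05, with the p taken as unadjusted, since the study names no adjustment. Benjamini-Hochberg adjustment ran over all genes. Members were named if called, besides 8 defining genes of the roles in each comparison; of other lists, up to 4 called genes were named. The fit was tested on simulated data. Whether label numbers pair arrays was checked through their deviations from group means. The correlation was over 0.1 in 3 of 11 VB and dLGN pairs that shared both label numbers. It was over 0.1 in 3 of 6 embBE and control pairs at P4 that shared the first number. No pairing was used in the main fits. The check cannot exclude pairing, because deviations within groups of 2 to 4 arrays constrain each other. The alternatives were the methods' t-test, mean of probe sets, dim genes left out, cyclic loess, median centring, trended eBayes, other array sets, a replicate block, each array left out and, added after the data were seen, the SD of each array as a covariate. Figures were drawn with matplotlib 3.10.9.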

Additional observations from a re-analysis of the deposited data

Results flagged for a closer look

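Among the 4 embBE arrays of dLGN at P0, the only group large enough to test, a single array lay far from the others for 3 of 38 members: Col1a1 was 6.72 on array 39_3, Tek was 5.15 on array 35_3 and Abcb1a was 6.81 on array 35_3. Chance alone marks about 1 group in 20, so 3 of 38 lies near that rate and is no result about the members. The same count over all genes was not made. These 2 arrays also had the narrowest signal spread of that group (SD 2.16 and 2.22), and its part in these values was not tested.

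The embBE effect differed between ages in dLGN, by the unadjusted test of the difference itself, for Col1a2 (1.23) and Col3a1 (2.13). It differed between the nuclei (VB minus dLGN) for Tgm2 (-0.97) and Slc2a1 (-0.65) at P0 and for Tgm2 (-1.03), Vwf (-0.73) and Itih5 (-0.70) at P4. None passed adjustment over all genes in limma.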

How the results depend on the processing

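Leaving out each array in turn gave 0 to 2 called members in VB at P0, where 0.176% to 5.82% of all genes were called. In VB at P4 it gave 0 to 1 (0.066% to 1.15% of all genes). In dLGN at P0 it gave 1 to 3 when an embBE array was left out (0.308% to 3.19%). Leaving out a control there left 1 control, and no count is given. Leaving out each array gave 4 to 12 in dLGN at P4 (0.159% to 0.769%). With age it gave 2 to 5 in VB and 1 to 4 in dLGN, between nuclei 1 to 3 at P0 and 1 to 4 at P4, and for differences of the embBE effect 0 to 1 (VB ages), 0 to 3 (dLGN ages), 0 to 3 (nuclei, P0) and 0 to 7 (nuclei, P4). The methods' t-test called 1 member in dLGN at P0, 3 in dLGN at P4 (Vwf, Angpt2 and Tgm2) and 1 between nuclei at P4. The mean of a gene's probe sets called 1 with age in VB, 1 in dLGN, 1 between nuclei at P4 and 1 for the embBE effect between nuclei at P0; in dLGN at P4 it called 5, without Tgm2, Angpt2 and Dcn. With the dimmest genes left out there was 1 between nuclei at P4 and 0 for the embBE effect between ages in dLGN. Cyclic loess gave 1 in dLGN at P0 and 1 between nuclei at P4. The SD of each array as a covariate, chosen after seeing the data, gave 4 in dLGN at P0, and for the embBE effect between nuclei 0 at P0 and 6 at P4. No share of all genes is given beside the counts for age, for nuclei and for these other settings. The causes were not tested.

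Other probe sets turned the sign of Dcn in dLGN at P4 (-0.13), of Slc2a1 between nuclei at P0 (0.20) and of Tgm2 in dLGN at P0 (-0.0198) and P4 (-0.12) and between nuclei at P4 (0.0299). Of the other probe sets of called members, 24 kept the sign without the call and 11 kept both. With the replicate block 2 members were called in dLGN at P0 and 7 at P4, and the embBE effect between nuclei at P4 went from 3 to 2 (Vwf). Arrays of 1 label number did not all deviate together: correlations were -0.20 to 0.76 between embBE and control at P4 (3 of 6 over 0.1) and -0.55 to 0.72 between nuclei (3 of 11). The few arrays and weak signals limit what could be seen.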
